A study of Mus musculus with 24 samples.

Results

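The Cyp3a drug oxidase family was described over the groups of a mouse liver series that treated animals with statins or an agonist of the pregnane X receptor (PXR, encoded by Nr1i2). Its members were taken by symbol: Cyp3a11, Cyp3a13, Cyp3a16, Cyp3a25, Cyp3a41a, Cyp3a41b, Cyp3a44 and Cyp3a59. Of these 8 genes, 7 were listed in the vehicle and PCN table, which holds 19209 genes with a symbol. The low-count filter applied here before testing kept 5. Cyp3a41a is not listed in the tables used here and was not analysed.

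Cytochromes P450 of the CYP3A family sit in the endoplasmic reticulum of hepatocytes and oxidise drugs and steroids, taking electrons from the reductase encoded by Por. PXR binds foreign compounds and bile acids, pairs with RXR and activates genes of drug clearance. Cyp3a11 is its classical target in mouse liver, and pregnenolone 16α-carbonitrile (PCN) is the standard rodent PXR agonist.

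Liver total RNA of 24 male mice was sequenced, 4 mice in each of 6 groups, and each library title carries an animal number of its own. Wild-type C57BL/6N mice on chow, 19 to 20 weeks old, received 100 mg/kg PCN, 10 mg/kg atorvastatin, 10 mg/kg pravastatin or vehicle. PXR knockout (PXRKO) mice of 20 weeks, labelled as on the same strain, received 10 mg/kg atorvastatin or vehicle. All had 4 days of oral gavage, with distilled water as the vehicle, and a 12 h fast before sacrifice. The deleted part of Nr1i2 is not given in the labels. The PXRKO mice and the wild-type mice belonged to different experiments, and the effect of genotype and that of the experiment cannot be told apart.

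Libraries of the vehicle and PCN table held 7.77 to 15.5 M counts with PCN and 6.25 to 23.4 M with vehicle. Values are normalised counts, raw counts divided by a library size factor, on 1 scale where a size factor of 1 is about 11.7 M counts. Levels of groups from different tables were set across separately normalised tables. Libraries are numbered 1 to 4 within a group by column order, which pairs nothing between groups. Nr1i2, the targeted gene, had 398 to 650.3 normalised counts in PXRKO atorvastatin livers, 541 to 659 in PXRKO vehicle livers, 1394 to 1665 in wild-type atorvastatin livers and 1069 to 1380 in wild-type vehicle livers. Every PXRKO library was below every wild-type library of these groups. Hepatocyte markers summed to 689940 to 752675 normalised counts with PCN and to 757301 to 879388 with vehicle, with no overlap. Most of each sum was Alb, at 534148 to 672316 per library. Singly, Alb, Apoa1, Cps1 and Serpina1a overlapped between the groups. Ttr did not, and 11.5% of all genes tested did not overlap in either direction. None of the 5 hepatocyte markers passed the threshold used below, and their part in the results was not tested. Of the tested markers of other liver cells, only Lrat of stellate cells passed the threshold used below, at means of 389 with PCN and 243 with vehicle (edgeR adjusted p = 0.00640). In such bulk tissue, fewer cells of a type and less RNA per cell cannot be told apart.

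All 8 members lie on chromosome 5 (GRCm38). Cyp3a13, at chr5:137892932-137921619 on the minus strand, stands 7.51 Mb from the nearest other member. The others form a cluster that runs from Cyp3a16 at chr5:145436309-145469723 to Cyp3a59 at chr5:146079257-146113287, and within it Cyp3a11 occupies chr5:145854426-145879964 on the minus strand. The longest coding transcripts of Cyp3a41a and Cyp3a41b were 99.7% identical, those of Cyp3a25 and Cyp3a59 were 96.5% identical, and those of Cyp3a41a and Cyp3a44 were 90.5% identical. Of all 100-base windows of a transcript, 88.2% in Cyp3a41b, 6.05% in Cyp3a25, 5.61% in Cyp3a59, 5.37% in Cyp3a44 and 0.312% in Cyp3a11 stood exactly in another Cyp3a gene. No such window of Cyp3a13 was shared, even at 50 bases. Counts of Cyp3a41b, and of Cyp3a25 and Cyp3a59 against each other, are therefore uncertain, since reads can split between such copies. Cyp3a44 shared 6.95% of its 50-base and 0.268% of its 100-base windows with the far more abundant Cyp3a11. Mean normalised counts of Cyp3a11 and Cyp3a44 were 35839 and 13.8 with vehicle, and 79668 and 41.7 with PCN. Whether Cyp3a11 reads entered the Cyp3a44 counts was not tested.

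**Figure D1:**
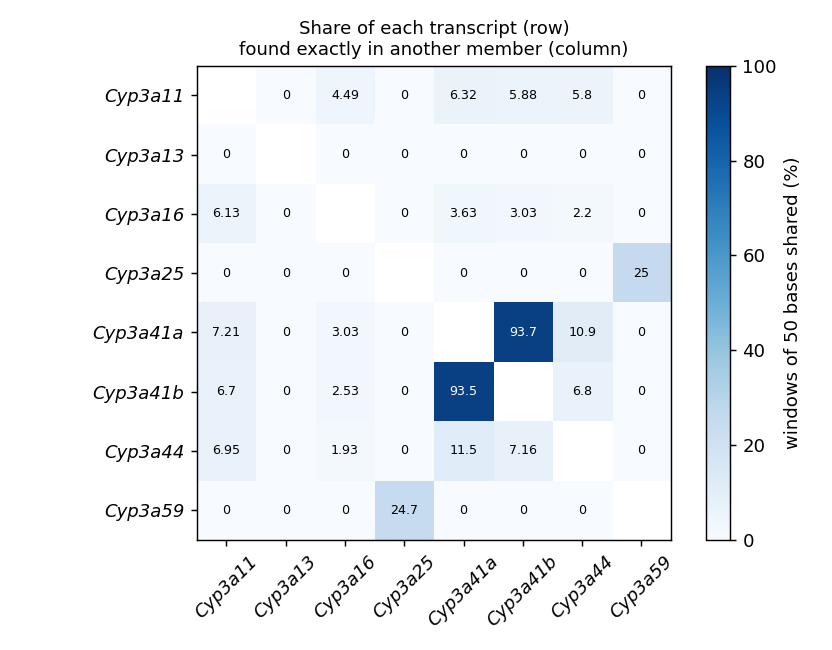
Share of the 50-base windows of each member's longest coding transcript (row) that occurs exactly in another member (column), in percent. Cyp3a41a and Cyp3a41b share most of their windows, Cyp3a25 and Cyp3a59 share about 25.0%, and the Cyp3a13 row is at 0.

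The promoters of the 4 members whose levels the results turn on are printed 5′ to 3′ on the gene's strand, 250 bases before to 50 after the annotated start (RefSeq, GRCm38.p6, where 8 of 8 members matched). Capitals mark, on either strand, the nuclear receptor half-sites AGGTCA and AGTTCA and the HNF4-type element CAAAGTCCA.
Cyp3a11 promoter, chr5:145879805-145880104, minus strand: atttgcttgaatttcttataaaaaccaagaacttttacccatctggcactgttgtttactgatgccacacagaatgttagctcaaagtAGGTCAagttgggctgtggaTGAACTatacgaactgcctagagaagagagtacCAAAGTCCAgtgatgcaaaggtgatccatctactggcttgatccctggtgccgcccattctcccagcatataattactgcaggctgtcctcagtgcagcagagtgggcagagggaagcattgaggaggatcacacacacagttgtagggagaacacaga
Cyp3a44 promoter, chr5:145805825-145806124, minus strand: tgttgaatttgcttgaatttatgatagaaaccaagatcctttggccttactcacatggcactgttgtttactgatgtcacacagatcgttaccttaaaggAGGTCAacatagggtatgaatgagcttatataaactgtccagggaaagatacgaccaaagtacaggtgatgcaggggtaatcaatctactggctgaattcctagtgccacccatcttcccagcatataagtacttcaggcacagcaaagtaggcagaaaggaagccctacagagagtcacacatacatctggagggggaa
Cyp3a25 promoter, chr5:146009569-146009868, minus strand: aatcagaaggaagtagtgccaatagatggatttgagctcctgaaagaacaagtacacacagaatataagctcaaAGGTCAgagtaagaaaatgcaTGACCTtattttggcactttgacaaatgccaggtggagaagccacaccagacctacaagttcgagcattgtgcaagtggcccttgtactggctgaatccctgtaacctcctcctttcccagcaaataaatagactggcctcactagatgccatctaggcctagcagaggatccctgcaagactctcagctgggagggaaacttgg
Cyp3a59 promoter, chr5:146079008-146079307, plus strand: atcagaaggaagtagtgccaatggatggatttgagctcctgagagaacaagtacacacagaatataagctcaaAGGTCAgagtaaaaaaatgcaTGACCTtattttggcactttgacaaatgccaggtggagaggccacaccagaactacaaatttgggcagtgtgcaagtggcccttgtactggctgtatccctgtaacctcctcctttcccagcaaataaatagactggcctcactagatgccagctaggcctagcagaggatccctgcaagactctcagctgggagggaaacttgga
AGGTCA was found in 4 of 8 member promoters (Cyp3a11, Cyp3a25, Cyp3a44 and Cyp3a59) and in 16.3% of all 32851 mouse promoters of this length. AGTTCA was found in 3 of 8 (Cyp3a11, Cyp3a41a and Cyp3a41b) and in 14.0% of all promoters. CAAAGTCCA was found in 4 of 8 (Cyp3a11, Cyp3a16, Cyp3a41a and Cyp3a41b) and in 0.475% of all. Cyp3a11 held all 3 motifs, and Cyp3a25 and Cyp3a59 each held AGGTCA on both strands. Pairs of these half-sites in the everted ER6 or the direct DR3 and DR4 arrangement were found in 0 of 8 member promoters. They were found in 0.00913%, 0.0122% and 0.0274% of all promoters. The Cyp3a25 and Cyp3a59 windows were 95.7% identical, and the Cyp3a11 and Cyp3a44 windows 71.8%. Those of Cyp3a16, Cyp3a41a and Cyp3a41b were 90.3% to 97.0% identical to each other. Matches in such near copies are not independent. A match is a description of the letters in this window.

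In wild-type livers, members differed widely in level. Per kb of longest coding transcript, Cyp3a11 averaged 33988 ± 10678 normalised counts with PCN and 15290 ± 3478 with vehicle (SD, n = 4 each). Cyp3a25, a steroid and drug oxidase of the same cluster, averaged 7751 ± 3803 per kb with PCN and 6524 ± 4294 with vehicle. Cyp3a13, the member outside the cluster, averaged 867 ± 77.1 per kb with PCN and 799.6 ± 87.9 with vehicle.

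Cyp3a59 followed with 465 ± 260.0 per kb with PCN and 267 ± 334 with vehicle, and Cyp3a44 with 21.2 ± 8.09 per kb with PCN and 7.06 ± 2.27 with vehicle. Among vehicle libraries the per-kb ranges of Cyp3a11 and Cyp3a25 overlapped, as did those of Cyp3a13 and Cyp3a59. Within each vehicle library, Cyp3a25 counts were 23.5% to 56.7% of Cyp3a11 counts, and Cyp3a13 counts exceeded Cyp3a59 counts. Cyp3a25 lay above Cyp3a13 and Cyp3a59 above Cyp3a44 in every vehicle library, with no overlap of ranges. The gap between Cyp3a11 and Cyp3a25 was narrower over all annotated exons of each gene, where Cyp3a11 averaged 7037 and Cyp3a25 averaged 6264 normalised counts per kb in vehicle livers.

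**Figure D2:**
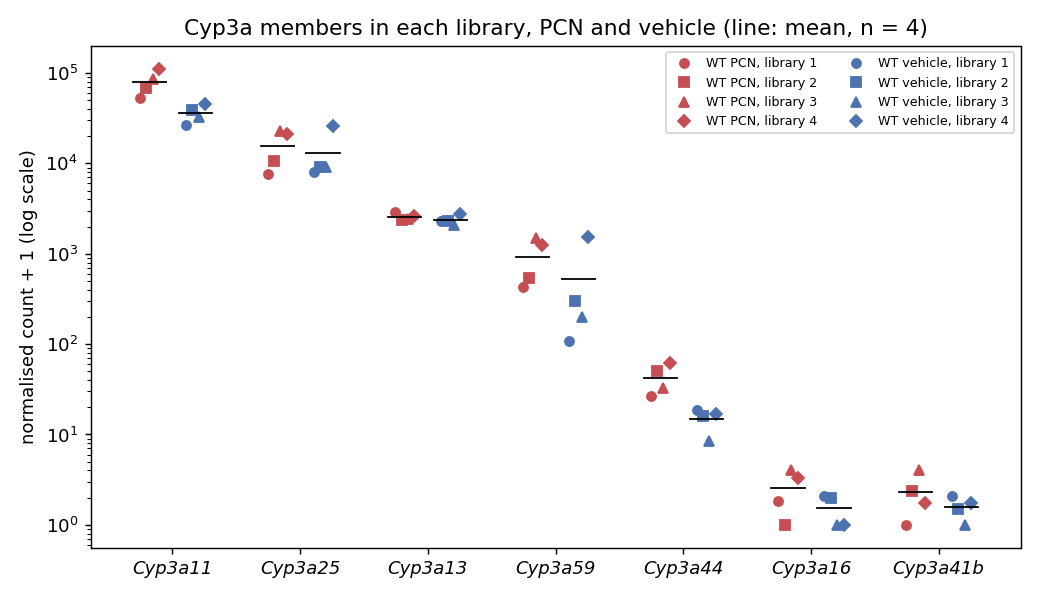
Normalised count plus 1 (log axis) of the 7 listed members in each wild-type PCN library (left of each pair) and vehicle library (right), with the group mean as a line. Cyp3a11 and Cyp3a44 do not overlap between the groups, and vehicle library 4 stands with the PCN libraries for Cyp3a25 and Cyp3a59.

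With PCN, 2 of the 5 members tested rose past the threshold, Cyp3a11 and Cyp3a44, and none fell. The threshold was an adjusted p under 0.05 in edgeR's quasi-likelihood test over all 12855 genes tested, of which 3.56% were called in either direction and 1.91% were called higher. Groups did not overlap, with PCN higher, for the same 2 members, against 5.6% of all genes tested.

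Cyp3a11, the main drug-metabolising CYP3A of mouse liver, had 53374, 67929, 85900 and 111467 normalised counts in PCN livers, against 26840, 38622, 32190 and 45704 in vehicle livers. The lowest PCN library lay above the highest vehicle library. Its log2 fold change was 1.16 ± 0.22 (SE), with a 95% interval of 0.68 to 1.63 and an edgeR adjusted p of 0.0138. It remained called whichever of the 8 libraries was left out.

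Cyp3a44, a close relative described as female-biased in mouse liver, was a low-count gene in these males. It had 25.6, 49.0, 31.9 and 60.2 normalised counts in PCN livers, against 17.5, 14.9, 7.37 and 15.7 in vehicle livers. All PCN libraries were above all vehicle libraries, on raw counts that summed to 168 with PCN and 71 with vehicle. Its log2 fold change was 1.54 ± 0.33 (SE, 95% interval 0.81 to 2.26) with an edgeR adjusted p of 0.0254. The call was lost when PCN library 2 or 4, or vehicle library 1, 2 or 3, was left out (edgeR adjusted p between 0.0538 and 0.0888). Cyp3a44 shares sequence with Cyp3a11, and whether Cyp3a11 reads contributed to its counts or its rise was not tested.

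Cyp3a59 had 431, 538, 1474 and 1255 normalised counts in PCN livers, against 106, 296, 199 and 1522 in vehicle livers. Vehicle library 4 was the highest of all 8 libraries, and the other 3 vehicle libraries were below every PCN library. The log2 fold change was 0.77 ± 0.67 (SE, 95% interval -0.69 to 2.22), and the edgeR adjusted p was 0.574. Without vehicle library 4 it was 2.16 on the log2 scale with an edgeR adjusted p of 0.0226. Cyp3a59 was called in only 1 of the 8 runs that each left out a library. Without PCN library 3 the log2 fold change was 0.46 (edgeR adjusted p = 0.760).

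Cyp3a25 had 7535, 10548, 22992 and 20928 normalised counts in PCN livers, against 8043, 9073, 9172 and 25906 in vehicle livers. The groups overlapped, and vehicle library 4 was again the highest of the 8. Its log2 fold change was 0.25 ± 0.41 (SE, 95% interval -0.64 to 1.15; edgeR adjusted p = 0.749). The ratio of group means was 1.19, and 1.77 without that vehicle library, where the edgeR adjusted p was 0.187. Without PCN library 3 the log2 fold change was 0.0016 (edgeR adjusted p = 0.999).

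Cyp3a13, which is also expressed in intestine, had 2864, 2370, 2401 and 2611 normalised counts in PCN livers, against 2322, 2303, 2105 and 2724 in vehicle livers. The groups overlapped and both were narrow. Its log2 fold change of 0.12 ± 0.09 (SE) had a 95% interval of -0.08 to 0.32, the narrowest among the 5 members tested, and an edgeR adjusted p of 0.523.

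Cyp3a16, known as a fetal form, had raw counts of 1, 0, 2 and 3 in PCN livers and 1, 2, 0 and 0 in vehicle livers. Cyp3a41b, described as female-specific in mouse liver, had 0, 1, 2 and 1 in PCN livers and 1, 1, 0 and 1 in vehicle livers. Both stayed at or under 3 counts per library, so no difference was detectable at these counts and no fold is given.

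**Figure D3:**
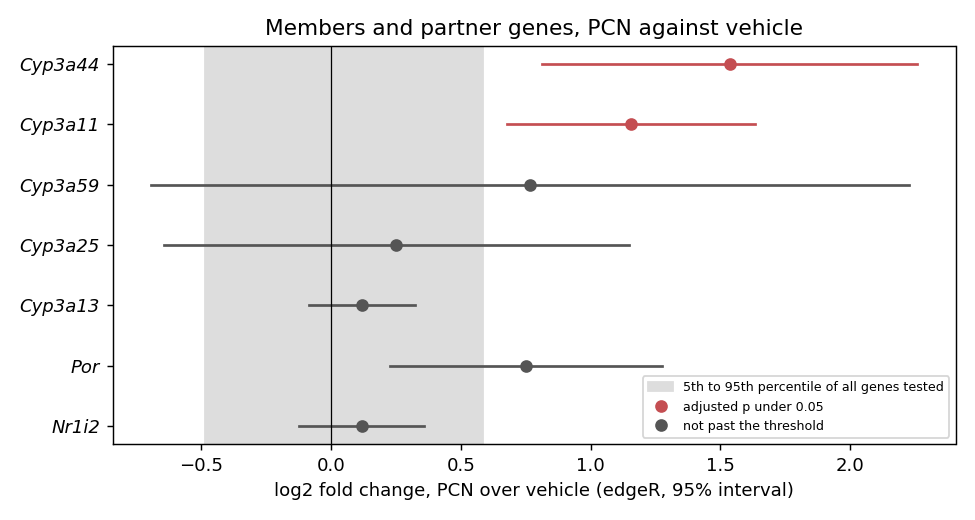
Log2 fold change of PCN over vehicle with 95% intervals (edgeR) for the 5 members tested, Por and Nr1i2. The grey band is the 5th to 95th percentile of all genes tested, -0.49 to 0.59. Cyp3a11 and Cyp3a44, past the threshold, lie above the band, and the Cyp3a59 and Cyp3a25 intervals are the widest.

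Within a library, Cyp3a59 and Cyp3a25 could be compared as a ratio that needs no size factor. Cyp3a59 counts were 5.72%, 5.10%, 6.41% and 5.99% of Cyp3a25 counts in PCN livers, against 1.32%, 3.26%, 2.17% and 5.87% in vehicle livers. Vehicle library 4 lay within the PCN range and the other 3 vehicle libraries below it. Across the 8 libraries the log2 levels of both genes correlated with a Pearson's r of 0.887 and a Spearman's rho of 0.833, given as a description. The points share their libraries, and the transcripts share windows.

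**Figure D4:**
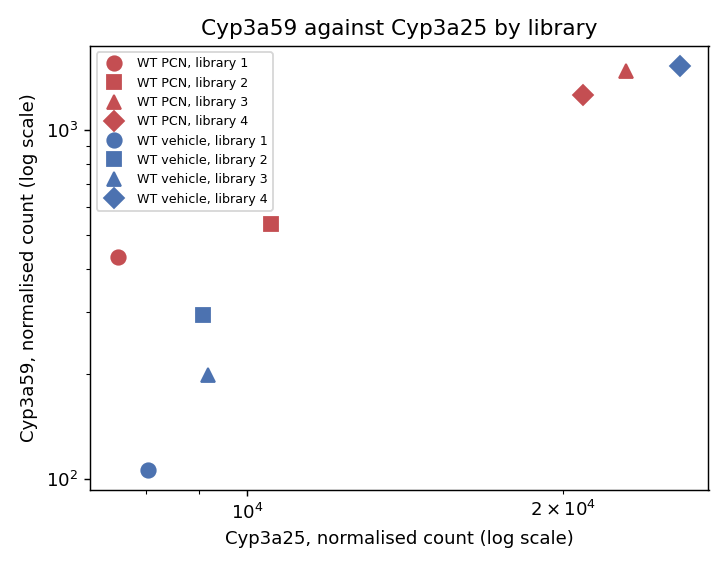
Cyp3a59 against Cyp3a25 normalised counts (both log axes) in the 8 wild-type PCN and vehicle libraries. PCN libraries 3 and 4 and vehicle library 4 form the upper right, between 1255 and 1522 counts of Cyp3a59, and the other 5 libraries lie at 538 or less.

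Cyp3a11 made up 76.1% to 83.4% of the summed normalised counts of the listed members in PCN livers, against 60.2% to 76.8% in vehicle livers. The ranges overlapped, and the lowest share was in vehicle library 4, where Cyp3a25 took 34.1%.

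The genes with levels most like each abundant member were found by Pearson's correlation of log2 values over the same 8 libraries, among 9669 genes averaging 50 or more normalised counts. For Cyp3a11 these included Ttc23 (r = 0.992) and Slc16a12 (r = 0.990). For Cyp3a25 they were Shmt1 (r = 0.968), Mbtps2 (r = 0.952) and Slco1a4 (r = 0.949), an organic anion uptake transporter. For Cyp3a13 they were Ajuba (r = 0.946), Tbc1d13 (r = 0.906) and Garem1 (r = 0.903). These are the highest of 9669 values over 8 libraries that span both groups, so any shift with PCN enters them. They are given as a description.

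Of genes that serve or regulate the family, the 7 P450 partners had a median log2 fold change of 0.15 with PCN, against -0.01 over all genes tested, and none passed the threshold. Por, the electron donor, had 8683, 9290, 8287 and 12335 normalised counts in PCN livers, against 3855, 5246, 4434 and 9429 in vehicle livers. Vehicle library 4 alone reached the PCN range, and the edgeR adjusted p was 0.118 at a log2 fold change of 0.75 ± 0.24 (SE). Alas1, the first enzyme of haem synthesis, averaged 15946 with PCN and 10423 with vehicle (edgeR adjusted p = 0.217). Pgrmc1, a haem-binding membrane protein that binds P450s, averaged 14027 with PCN and 13129 with vehicle, at a log2 fold change of 0.10 (edgeR adjusted p = 0.691).

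Of 15 nuclear regulators tested, 1 passed the threshold, Nr0b2, the bile acid-induced corepressor SHP. It fell to a mean of 196 normalised counts with PCN, against 533 with vehicle (log2 fold change -1.43, edgeR adjusted p = 9.9e-05). Nr1i2 itself had a log2 fold change of 0.12 (edgeR adjusted p = 0.600). Of 33 other PXR and CAR targets tested, 1 rose: the carboxylesterase Ces2a averaged 8112 with PCN and 3112 with vehicle (edgeR adjusted p = 0.00600), and the list's median log2 fold change was 0.09. Vehicle library 4 was the highest vehicle library for 21 of these 33 genes, for 4 of the 5 members and for 26.9% of all genes tested.

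Of 13 female-biased liver genes tested, 1 rose and 1 fell. Fmo2, a flavin monooxygenase, averaged 552 with PCN and 208 with vehicle (edgeR adjusted p = 0.0405), and Cyp4a14, a fatty acid hydroxylase, averaged 19785 with PCN and 34375 with vehicle (edgeR adjusted p = 0.0277). Of 25 male-biased genes, 1 fell, the fatty acid elongase Elovl3, to 1134 with PCN against 3403 with vehicle (edgeR adjusted p = 0.00355). Among 23 tested genes within 250 kb of a member, 1 passed: Zfp655, a zinc finger gene, averaged 1270 with PCN and 699.8 with vehicle (edgeR adjusted p = 0.00466).

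In PXRKO vehicle livers, Cyp3a11 stood above its level in wild-type vehicle livers, though the call depended on the test. It had 48455, 55271, 51171 and 63472 normalised counts in PXRKO vehicle livers, against 26840, 38622, 32190 and 45704 in wild-type vehicle livers. The groups did not overlap, as was true of 76.9% of the genes the authors listed for this comparison. The ratio of means was 1.52, and the log2 difference was 0.63, with all pairwise differences between 0.08 and 1.24.

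The exact two-sided permutation test gave p = 0.0286, the smallest that 4 against 4 libraries allow. It was 0.0667 after Benjamini-Hochberg adjustment over the 7 comparisons of a member, other than PCN against vehicle, that had values. Cyp3a11 has PXRKO vehicle values only because the authors' result listed it for this comparison, so this p adds no separate support. The authors' deposited table gave Cyp3a11 a log2 fold change of 0.51 (SE 0.13; adjusted p = 0.00558), and it was the only member listed there. For the same groups, the authors' deposited table called 2.08% of genes in either direction and 1.17% higher. With an edgeR-type test on the listed genes the adjusted p was 0.136, and the gene was not called. That test was not a full edgeR fit, and unlisted genes entered its adjustment as not different.

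PCN livers and PXRKO vehicle livers overlapped for Cyp3a11, at means of 79668 ± 25028 and 54592 ± 6549 normalised counts (SD, n = 4 each). Their ratio was 1.46, with pairwise log2 differences between -0.25 and 1.20 and an exact two-sided permutation p of 0.0857 (0.12 adjusted). Both comparisons with wild-type vehicle share the same 4 vehicle libraries.

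Cyp3a25 was the only member listed for PXRKO atorvastatin against wild-type atorvastatin livers. It had 24942, 24404, 27145 and 29930 normalised counts in PXRKO atorvastatin livers, against 13285, 11605, 22221 and 16039 in wild-type atorvastatin livers. The groups did not overlap, as for 85.5% of the genes listed there. The ratio of means was 1.69, and the log2 difference was 0.79 with pairwise differences between 0.14 and 1.37. The exact two-sided permutation p was 0.0286 (0.0667 adjusted). Cyp3a25 has values in both atorvastatin groups only because it was listed for this comparison, so this p adds no separate support.

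The authors' deposited table gave it a log2 fold change of 0.67 (SE 0.15; adjusted p = 0.000437). Between these groups, the authors' deposited table called 9.35% of genes in either direction and 4.25% higher. With the edgeR-type test on the listed genes the adjusted p was 0.0232.

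Wild-type atorvastatin livers averaged 15788 ± 4662 normalised counts of Cyp3a25 and wild-type vehicle livers 13049 ± 8587 (SD, n = 4 each). They overlapped, with a ratio of 1.21, pairwise log2 differences between -1.16 and 1.47 and an exact two-sided permutation p of 0.371 (0.433 adjusted). Without vehicle library 4 the vehicle mean was 8763 ± 625 and the ratio 1.80. On the log2 scale, the ratio was 0.27 with all libraries and 0.85 without vehicle library 4. It was 0.06 without wild-type atorvastatin library 3. PXRKO atorvastatin livers, which differ from wild-type vehicle livers in both genotype and compound, averaged 26605 ± 2514, a ratio of 2.04 to wild-type vehicle livers (exact two-sided permutation p = 0.0857, 0.12 adjusted). Wild-type atorvastatin and wild-type PCN livers, at 15788 ± 4662 and 15501 ± 7606, were given at doses of 10 and 100 mg/kg, so these means are not at matched doses. Among the 7 comparisons their ratio was 1.02, with an exact two-sided permutation p of 0.8. Wild-type PCN livers were below PXRKO atorvastatin livers without overlap, at 15501 ± 7606 and 26605 ± 2514 (exact two-sided permutation p = 0.0286, 0.0667 adjusted). These groups differ in genotype, compound and dose. The Cyp3a25 values of both atorvastatin groups are those selected by the authors' listing for PXRKO against wild-type atorvastatin livers. The permutation p-values of these comparisons are not independent of that selection and settle neither a difference nor its absence.

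In each of the 4 groups with values of Cyp3a25, libraries 3 and 4 in column order lay above libraries 1 and 2. The animal numbers in the wild-type titles fall in 2 runs with 2 mice of each group in both. The labels do not call these runs batches, and the atorvastatin and PCN columns carry no animal number, so values within the runs could not be given and their part in the Cyp3a25 results was not tested.

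**Figure D5:**
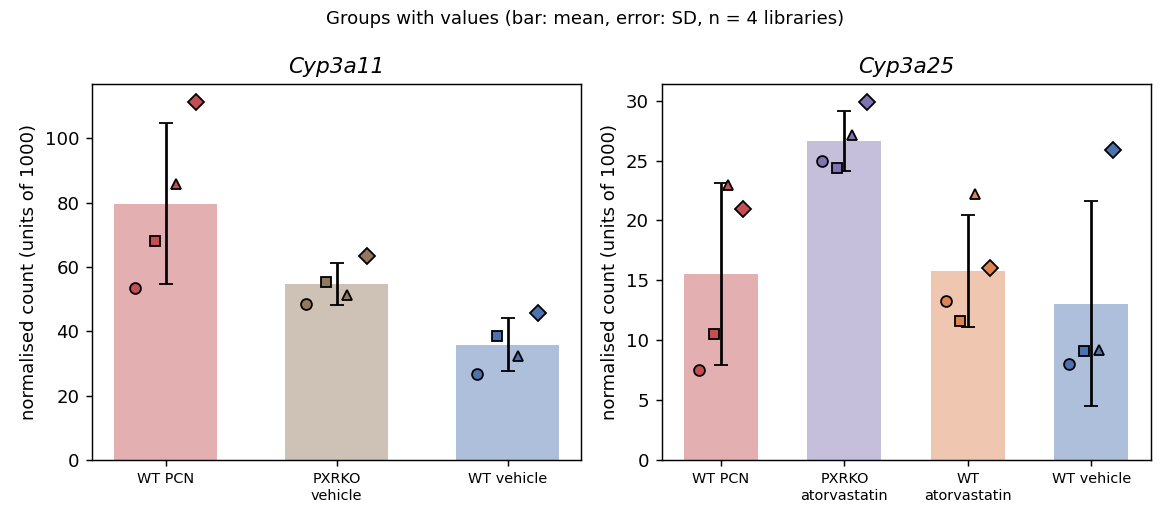
Normalised counts (in units of 1000) of Cyp3a11 and Cyp3a25 in every group that has values, with the mean as a bar, the SD as an error bar and the 4 libraries as points. All PXRKO vehicle points of Cyp3a11 lie above the wild-type vehicle points, and all PXRKO atorvastatin points of Cyp3a25 lie above the wild-type atorvastatin points.

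No member was listed in the deposited tables for wild-type atorvastatin against vehicle, wild-type pravastatin against vehicle or PXRKO atorvastatin against vehicle. Of the genes that the authors' adjusted p-values imply were tested, 9.58%, 0.191% and 0.106% were called in those tables. No member had values in all 4 genotype and atorvastatin groups, so whether the effect of atorvastatin differed with genotype could not be tested, nor could the statins be compared with each other.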

How the data were processed

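The members and gene lists were chosen with earlier results of these data known. Each of 15 deposited tables holds, per the file headers, counts of 8 libraries for a pair of groups beside a mean signal (baseMean), log2 fold changes and p-values from the authors' DESeq2 run. The authors used HTSeq and GRCm38, per the submitters' processing notes. Aligner and annotation were not given in any source read here, and the library kit keeps strand per the labels' protocols. Only the vehicle and PCN table lists nearly all genes. The others were selected on their own result.

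Column headers of the deposited count columns name no group. Tables that share a group in their name share 4 columns with identical counts (12044 values compared, 0 different), which fixed the groups, and 88 per-sample columns were not used. No library was a copy of another: the lowest chi-square divided by its degrees of freedom was 6.95. The 441 rows without a symbol (4.86% of counts) were left out. Starts were raised by 1, and genes were joined by symbol.

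Size factors were recovered from the deposited baseMean signal and the counts by least squares, and tables were joined through shared libraries (ratios varied by at most 0.250%). PCN against vehicle used edgeR 4.0.16 on counts (TMM, filterByExpr, quasi-likelihood F test, Benjamini-Hochberg over all genes, threshold 0.05), tested on simulated data. The simulation was revised after its first form missed its recovery target for small fold changes. Other comparisons used the authors' deposited adjusted p-values and an exact permutation test on log2(normalised count + 1), and pairwise differences span a 97.1% interval. The edgeR-type test on listed genes was not a full edgeR fit. Its dispersion and prior variance came from the PCN and vehicle fit, and unlisted genes entered its Benjamini-Hochberg adjustment as not different. DESeq2 1.42.0, other normalisations, no filter, other pseudocounts, medians and leaving out each library were tried. Named genes were all members, Nr1i2, Por, the called genes of each list or else its 2 most abundant, and the 3 genes most like each member of at least 1000 normalised counts, of which 1 is not reported here. Other tools were R 4.3.3, Biopython 1.88, scipy 1.17.1, pandas 2.3.3, numpy 2.4.6, matplotlib 3.10.9 and Python 3.11.15. Sequences came from RefSeq (GRCm38.p6) and transcripts from GENCODE.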

Additional observations from a re-analysis of the deposited data

Results flagged for a closer look

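Cyp3a25 in wild-type vehicle livers had 1 library far from the others. Library 4 had 25906 normalised counts, and its gap to the next library was 0.937 of the whole range, above Dixon's 95% critical value for 4 samples. Cyp3a59 in the same library had 1522 normalised counts, with a gap of 0.866 of the range. Of the 17 member and group combinations examined these 2 passed, both in the same library. Chance passes about 5% of groups of normally distributed values. The 17 include Cyp3a16 and Cyp3a41b, at or under 3 counts per library, where that rate need not hold. Dixon's test used normalised counts without a log transform, and the log2 scale was not tested. The Cyp3a25 and Cyp3a59 transcripts share sequence, so the values are not independent. The part of this library in the results was not tested beyond the values given without it.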

How the results depend on the processing

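Of 203 alternative values of 29 results, 183 kept their direction and side of the threshold or moved by less than the spread between libraries. No called value changed sign. Of the values past no threshold, 6 changed sign, all for Cyp3a25: 5 for wild-type atorvastatin over PCN (log2 ratio 0.03, at -0.20 to -0.02) and 1 for PCN over vehicle (-0.0049 without PCN library 3, against 0.25). With each library left out, the number of members called with PCN ranged from 1 to 3, and the number of genes called from 222 to 487, against 458 with all libraries. DESeq2 called 757 genes and the same 2 members. Upper-quartile and median-ratio factors and no filter also called those 2. The adjusted p of Cyp3a11 in PXRKO against wild-type vehicle livers was 0.136 with the edgeR-type test on the listed genes, and the cause was not tested. Without vehicle library 4 the log2 ratio of means was 2.21 for Cyp3a59 with PCN and 1.60 for Cyp3a25 in PXRKO atorvastatin against wild-type vehicle livers. The summed Cyp3a41a and Cyp3a41b feature held Cyp3a41b alone. The other pseudocount for the genotype by atorvastatin difference was not run, since no member had values in all 4 groups. No paired analysis was possible because the groups share no replicate numbers in the labels and the PCN and atorvastatin columns carry no animal number. Low counts limit Cyp3a16 and Cyp3a41b, at or under 3 counts per library, and Cyp3a44. Shared sequence also leaves the Cyp3a41b counts uncertain, and the part of sequence shared with Cyp3a11 in the Cyp3a44 counts was not tested.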
